A study of Mus musculus with 12 samples.

Results

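The 8 genes described here encode the costimulatory receptors OSCAR and TREM2, the adaptors through which such receptors signal, and the first enzymes downstream of them. They are the rows of the gene table with the symbols Oscar, Trem2, Tyrobp, Fcer1g, Syk, Plcg2, Btk and Tec, 8 of 47643 genes, and all 8 were among the 13681 genes that passed the filter on low counts. The data were bulk RNA-seq counts of osteoclasts, which had been differentiated with M-CSF and RANKL from BALB/c WT bone marrow derived monocytes (BMMs), 4 biological replicates in each of 3 groups. Unstimulated osteoclasts (OCsCtr) were compared with osteoclasts stimulated with eosinophils at 2 per BMM (OCsEo) and with osteoclasts given eosinophil supernatant at a 1:2 dilution (OCsEoS). Both stimuli were added on day 0 for 48 h and then washed away, and cells were lysed for RNA on day 3. Sorting from the blood and the marrow of IL-5tg/4get mice, which have an excess of eosinophils, provided the stimulating cells, so that OCsEo libraries could also hold RNA of remaining eosinophils or of other cells that passed the sort. The label osteoclast was borne out by Ctsk and Acp5 (cathepsin K and TRAP), at 6150 to 12800 and 3090 to 7870 CPM (counts scaled to a common library total) over the 12 libraries.

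Osteoclast precursors need a second signal beside RANK to activate NFATc1, the master transcription factor of osteoclasts. It comes from receptors with short tails that pair with adaptors carrying an immunoreceptor tyrosine-based activation motif (ITAM). OSCAR, a receptor for collagen, pairs with the Fc receptor γ chain (FcRγ, encoded by Fcer1g), and TREM2, a receptor for lipids and apolipoproteins, pairs with DAP12 (encoded by Tyrobp). Src family kinases phosphorylate the ITAM tyrosines, SYK docks there, and the TEC family kinases BTK and TEC help to activate phospholipase Cγ2 (encoded by Plcg2), which releases calcium and thereby activates NFATc1. Loss of TREM2 or DAP12 in humans causes Nasu-Hakola disease, with bone cysts and early dementia.

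The motif that gives the pathway its name is encoded by the adaptors alone. In a search of the coding sequences of the 8 genes (GENCODE vM21, build GRCm38) for a tyrosine followed by any 2 residues and a leucine or isoleucine, repeated after 6 to 8 residues, Tyrobp and Fcer1g each held 1 such motif and the other 6 genes held 0. The coding stretches of both motifs are shown 5′ to 3′ because they are the docking sites on which the pathway turns, with the codons of the tyrosines and leucines in capitals.
Tyrobp: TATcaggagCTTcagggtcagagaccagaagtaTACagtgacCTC
Fcer1g: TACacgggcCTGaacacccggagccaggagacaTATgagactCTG
The Tyrobp stretch lies on the plus strand of chromosome 7, in exon 4 (chr7:30415670-30415675) and exon 5 (chr7:30417344-30417382) of 5, and encodes residues 92 to 106 of 114. The Fcer1g stretch lies on the minus strand of chromosome 1, also in exon 4 (chr1:171230067-171230072) and exon 5 (chr1:171229889-171229927) of 5, and encodes residues 65 to 79 of 86. The 2 parts of the motif were spaced by 7 residues in both adaptors, and both stretches are split by an intron after their 6th base. Between the adaptors, 19 of 45 bases (42.2%) and 5 of 15 residues were identical.

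The promoters of the 2 receptor genes are shown because they were the members that passed the test below, in opposite directions. Each is the 250 bases before the RefSeq start of the gene (GRCm38.p6), 5′ to 3′ on the strand of the gene, with capitals for matches on either strand to GGAAA (the core bound by NFAT factors), GAGGAA (a core bound by PU.1), CACGTG (the E-box bound by MITF) or TGANTCA (the site of AP-1).
Oscar, chr7:3616158-3616407, minus strand: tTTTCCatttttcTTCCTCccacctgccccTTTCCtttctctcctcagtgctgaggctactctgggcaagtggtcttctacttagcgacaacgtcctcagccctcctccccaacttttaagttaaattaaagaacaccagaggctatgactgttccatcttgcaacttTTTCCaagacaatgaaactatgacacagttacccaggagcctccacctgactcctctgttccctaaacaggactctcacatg
Trem2, chr17:48346151-48346400, plus strand: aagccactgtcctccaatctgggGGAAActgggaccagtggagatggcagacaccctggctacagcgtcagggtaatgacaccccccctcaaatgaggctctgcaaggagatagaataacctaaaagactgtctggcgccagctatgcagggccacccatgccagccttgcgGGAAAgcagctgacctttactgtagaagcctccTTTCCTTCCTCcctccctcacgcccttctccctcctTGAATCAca
Both promoters held 3 matches to GGAAA and 1 match to GAGGAA in these bases, and the Trem2 promoter also held 1 match to TGANTCA. In the window of 300 bases that also takes in 50 bases after the start, Oscar had 1 more match to each of GGAAA and GAGGAA, and those matches overlapped. Neither window held CACGTG. Of 32851 RefSeq promoters of the same length, 61.3% held GGAAA, 28.3% held GAGGAA, 7.15% held CACGTG and 7.81% held TGANTCA. A promoter sequence was matched for 7 of the 8 genes.

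Of the 8 genes, Oscar fell and Trem2 rose with either stimulus, and the other 6 were not called in any comparison. A gene was called at a Benjamini-Hochberg adjusted p under 0.05 in edgeR's quasi-likelihood test together with a log2 fold change beyond 0.5 in either direction, as the study set it. In OCsEo against OCsCtr, 2 of 8 members were called, 1 in each direction, where 5.88% of all tested genes were called (3.27% higher and 2.61% lower). In OCsEoS against OCsCtr, again 2 of 8 were called, 1 in each direction, where 7.73% of all genes were called (3.63% higher and 4.11% lower). In OCsEoS against OCsEo, 0 of 8 were called by edgeR, where 0.38% of all genes were, and 0 by DESeq2. In edgeR, 3 of the 8 members had an unadjusted p under 0.05 there, as did 1524 of all 13681 tested genes. The median log2 fold change of the members was -0.06, -0.17 and -0.14 in these comparisons, against -0.01, -0.01 and 0.00 over all tested genes. Both comparisons with OCsCtr share the same 4 control libraries, so their values are given side by side and are not 2 independent observations. In bulk RNA, a lower level in every cell cannot be told apart from fewer cells that express the gene.

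**Figure D1:**
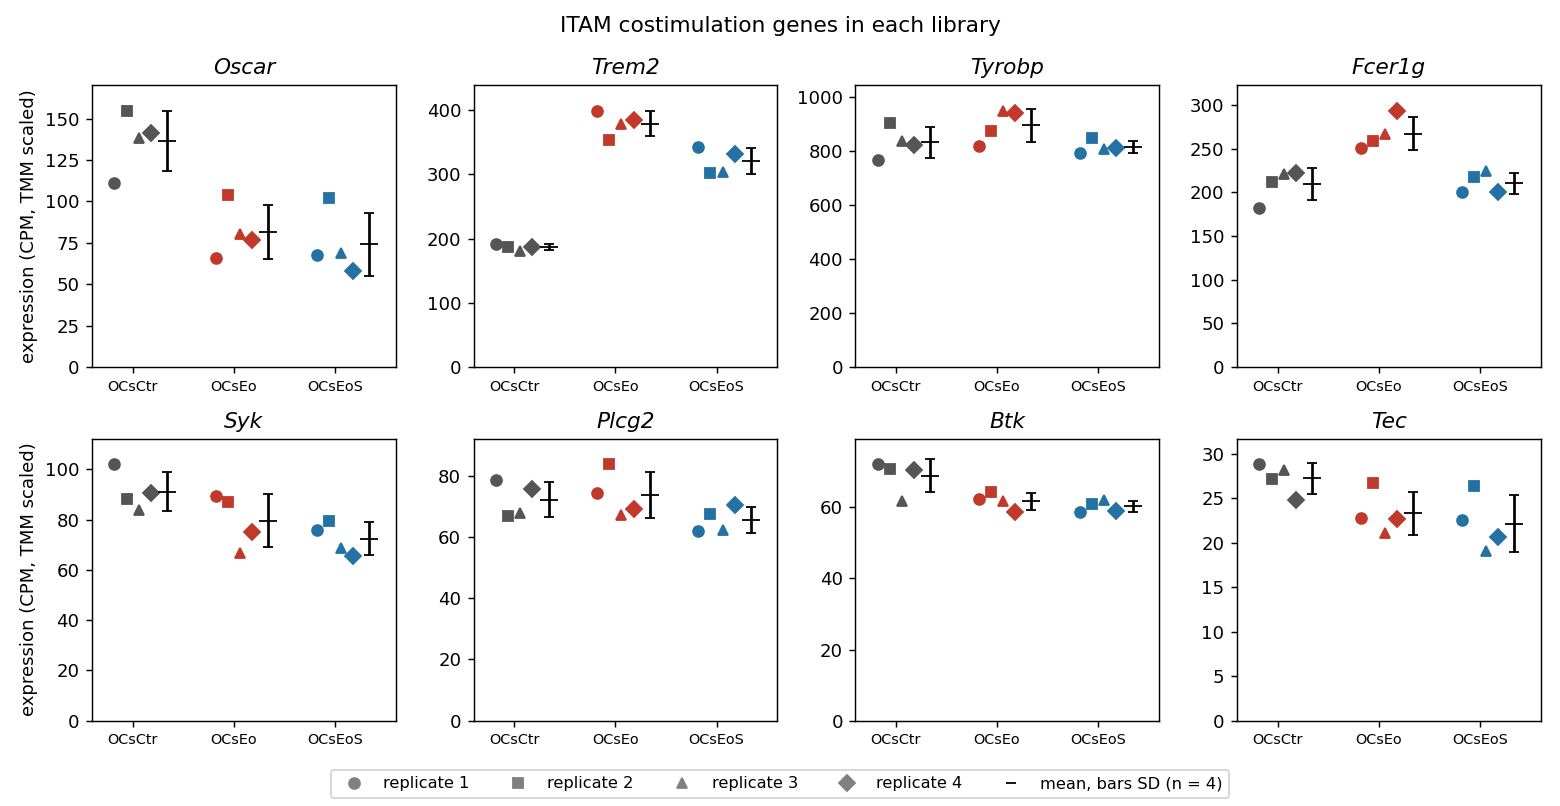
Expression of the 8 genes in each library, in CPM scaled by TMM (y axis from 0), for OCsCtr, OCsEo and OCsEoS. Points are libraries with 1 symbol for each replicate number, and the bars give the mean and SD (n = 4). Oscar lies lower and Trem2 higher in all 8 stimulated libraries than in the 4 OCsCtr libraries.

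Oscar (ENSMUSG00000054594, chromosome 7, 3609813 to 3616157, minus strand) was the member that fell. Its levels were 111.2, 154.9, 138.6 and 141.2 CPM in OCsCtr replicates 1 to 4. In OCsEo they were 65.57, 104, 80.52 and 76.56 CPM, and in OCsEoS 67.35, 102, 68.77 and 57.91 CPM. All 8 stimulated libraries lay below all 4 OCsCtr libraries, although the highest OCsEo library (104 CPM) came close to the lowest OCsCtr library (111.2 CPM). Groups that did not overlap were found for 21.5% of all genes in OCsEo and 25.7% in OCsEoS against OCsCtr. The mean was 136.5 ± 18.3 CPM in OCsCtr, with 81.67 ± 16.2 in OCsEo and 74.01 ± 19.3 in OCsEoS (SD, n = 4). The log2 fold change was -0.74 in OCsEo (standard error 0.15, adjusted p = 0.00158 in edgeR's quasi-likelihood test), a level of 0.599 times the control. In OCsEoS it was -0.88 (standard error 0.15, adjusted p = 2.49e-04), a level of 0.542 times the control. The difference between the stimuli was -0.14 on the log2 scale, with a 95% confidence interval of -0.45 to 0.17 (adjusted p = 0.771), so that a difference between them was not detectable, within that interval. Oscar was also the member that varied most between replicates, with a coefficient of variation of 13.4%, 19.8% and 26% in OCsCtr, OCsEo and OCsEoS, and replicate 2 was its highest library in each group. The call remained with each library left out in turn, with log2 fold changes of -0.88 to -0.65 in OCsEo and -1.07 to -0.78 in OCsEoS. Against a minimum log2 fold change of 0.5, tested with edgeR's glmTreat, the call of Oscar was lost in both comparisons (adjusted p = 0.797 and 0.199).

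The fall of Oscar went with lower osteoclast markers in the same libraries. The summed level of 8 osteoclast markers, chosen without Oscar, was 27900 to 34000 CPM in OCsCtr, with 17700 to 22900 in OCsEo and 14600 to 21700 in OCsEoS. Of these markers, 7 of 8 were called lower in each stimulated group. The library lowest in Oscar was also lowest in this sum in each group (replicate 1 in OCsCtr and OCsEo, replicate 4 in OCsEoS). Replicate 2, the highest in Oscar in each group, was highest in the sum in OCsEoS, but in OCsCtr and OCsEo the sum was highest in replicate 4. The part that the share of mature osteoclasts had in the level of Oscar was not tested.

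Trem2 (ENSMUSG00000023992, chromosome 17, 48346401 to 48354147, plus strand) was the member that rose. Its levels were 191.5, 187.3, 180.9 and 186.9 CPM in OCsCtr replicates 1 to 4, the tightest replicates of any member in any group, with a coefficient of variation of 2.34%. They were 399.5, 354, 378.9 and 384.7 CPM in OCsEo, and 343.5, 302.9, 303.7 and 332 CPM in OCsEoS. The 3 groups formed separate bands, with OCsEo highest, OCsEoS between and OCsCtr lowest, and no library overlapped another group. The mean of 186.6 ± 4.36 CPM in OCsCtr rose to 379.3 ± 18.9 in OCsEo and 320.5 ± 20.4 in OCsEoS (SD, n = 4). The log2 fold change was 1.02 in OCsEo (standard error 0.06, adjusted p = 1.27e-09 in edgeR's quasi-likelihood test), a 2.03-fold rise. In OCsEoS it was 0.78 (standard error 0.06, adjusted p = 8.2e-08), a 1.72-fold rise. Trem2 was the 1 member still called against a minimum log2 fold change of 0.5. Between the stimuli the log2 difference was -0.24 (95% confidence interval -0.36 to -0.12), with an adjusted p of 0.0611, above the threshold, although the 4 OCsEoS libraries all lay below the 4 OCsEo libraries. These groups did not overlap for 5.47% of all genes. Replicate 1 was the highest library of Trem2 in each group.

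The rise of Trem2 was set beside markers of other cells that express it. The summed level of 7 macrophage markers was 2260 to 2560 CPM in OCsCtr, with 2070 to 2400 in OCsEo and 1850 to 2220 in OCsEoS, so it was not higher in the stimulated groups, although single markers were called, 2 higher in OCsEo, 3 higher and 1 lower in OCsEoS. The summed level of 6 dendritic cell markers stayed between 3.99 and 11.6 CPM in all 12 libraries.

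**Figure D2:**
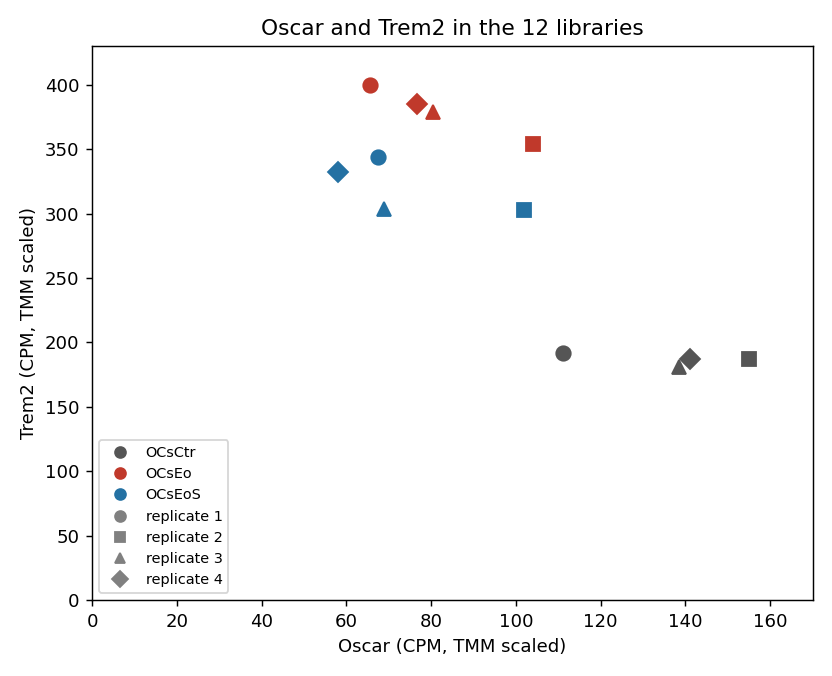
Level of Oscar (x axis) against level of Trem2 (y axis) in each of the 12 libraries, both in CPM scaled by TMM and from 0, with color for the group and symbol for the replicate number. The OCsCtr libraries sit at the lower right, with Oscar at 111.2 to 154.9 CPM and Trem2 at 180.9 to 191.5 CPM, and all stimulated libraries at the upper left.

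The ratio of the receptors, and of each receptor to its adaptor, moved with these opposite changes. Counted in CPM, which does not correct for gene length, there were 1.39 ± 0.227 Trem2 reads for each Oscar read in OCsCtr, 4.81 ± 1.11 in OCsEo and 4.55 ± 1.19 in OCsEoS (SD, n = 4). The highest OCsCtr library had a ratio of 1.72 and the lowest stimulated library a ratio of 2.97. For each read of its own adaptor Tyrobp, Trem2 had 0.225 ± 0.0182 reads in OCsCtr, 0.425 ± 0.0417 in OCsEo and 0.394 ± 0.0335 in OCsEoS. For each read of its adaptor Fcer1g, Oscar had 0.65 ± 0.0546 reads in OCsCtr, 0.307 ± 0.0665 in OCsEo and 0.35 ± 0.0815 in OCsEoS. These ratios restate the changes of single genes and were not tested on their own.

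Neither adaptor was called. Tyrobp (ENSMUSG00000030579, chromosome 7, 30413760 to 30417585, plus strand) had 766.6, 901.8, 836.3 and 820.8 CPM in OCsCtr. It had 819.6, 873, 949.6 and 940.4 CPM in OCsEo, and 793, 846.5, 805.8 and 810.6 CPM in OCsEoS. The 3 groups overlapped, with log2 fold changes of 0.11 in OCsEo (95% confidence interval -0.01 to 0.23, adjusted p = 0.234 in edgeR's quasi-likelihood test) and -0.03 in OCsEoS (-0.15 to 0.09, adjusted p = 0.771). Both intervals lay within 0.23 of 0 on the log2 scale, below the log2 fold changes of Trem2. The sign in OCsEoS turned to 0.02 without OCsCtr replicate 2 (adjusted p = 0.898).

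Fcer1g (ENSMUSG00000058715, chromosome 1, 171229572 to 171234365, minus strand) did not fall with Oscar, the receptor that uses it. It had 182.5, 211.9, 221.3 and 222.6 CPM in OCsCtr, against 250.5, 258.8, 266.8 and 293.8 CPM in OCsEo. It had 200.2, 217.4, 224.1 and 200.3 CPM in OCsEoS. Every OCsEo library lay above every library of the other groups, while OCsEoS and OCsCtr overlapped. The log2 fold change in OCsEo was 0.35 (standard error 0.07, adjusted p = 0.00158 in edgeR's quasi-likelihood test), under the fold change cut-off and therefore not called, as 17.4% of all genes passed on adjusted p alone. In OCsEoS it was 0.01 (95% confidence interval -0.14 to 0.15, adjusted p = 0.965). The test of the difference between the stimuli gave -0.35 (standard error 0.07, adjusted p = 0.0261), also under the cut-off, where 0.592% of all genes passed on adjusted p alone. In the 12 alternatives that left out no library of these groups, glmTreat apart, the adjusted p stayed under 0.05 (1.84e-04 to 0.0341, edgeR or DESeq2). With single libraries left out, the log2 difference stayed at -0.385 to -0.298, while the adjusted p lay on either side of 0.05. It was 0.0286 without OCsEo replicate 1 and 0.0386 without OCsEoS replicate 2. It rose to 0.0529, 0.0536 and 0.105 without OCsEo replicates 2, 3 and 4, and to 0.0986, 0.0603 and 0.0914 without OCsEoS replicates 1, 3 and 4.

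Fcer1g is also expressed by granulocytes and mast cells, and some eosinophil and neutrophil markers were higher in OCsEo. The added cells had been sorted as granulocytes that were CD45+, Siglec-F+ and intermediate for CD125 (the IL-5 receptor). Of 10 eosinophil markers 5 were tested and 2 were called higher in OCsEo, among them Alox15 at 6.24 to 16.7 CPM against 0.104 to 0.653 in OCsCtr. The sum of the 10 was 57.1 to 73.7 CPM in OCsCtr, with 60.1 to 82.2 in OCsEo and 49.3 to 55.5 in OCsEoS, most of it from Ccr3, and Epx, the eosinophil peroxidase, stayed at 0 to 0.479 CPM. The sum of 10 neutrophil markers was 328 to 471 CPM in OCsCtr, with 476 to 647 in OCsEo and 371 to 444 in OCsEoS, with 2 markers called higher in OCsEo and 3 called lower in OCsEoS than in OCsEo. The sum of 8 mast cell or basophil markers was 1.84 to 4.26, 3.08 to 3.33 and 1.31 to 2.35 CPM, with Cma1 at 0 counts in every library, and the OCsEo libraries lay within the range of OCsCtr. The part of such cells in the level of Fcer1g was not tested.

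**Figure D3:**
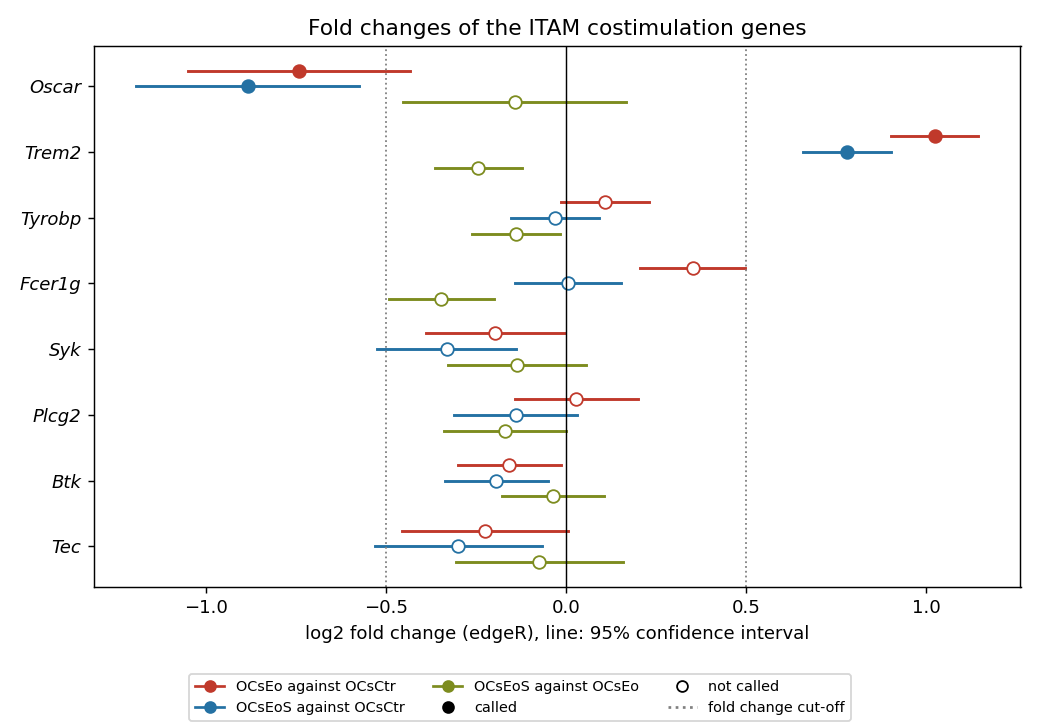
Log2 fold changes of the 8 genes from edgeR (x axis) in OCsEo against OCsCtr, OCsEoS against OCsCtr and OCsEoS against OCsEo. Lines are 95% confidence intervals, filled points were called, open points were not, and dotted lines mark the cut-off of 0.5. Filled points are seen for Oscar, at -0.74 and -0.88, and for Trem2, at 1.02 and 0.78.

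The kinases and the phospholipase moved less. Syk (ENSMUSG00000021457, chromosome 13, 52583173 to 52648792, plus strand), the kinase that docks on the ITAM, had 102.1, 88.13, 83.91 and 90.46 CPM in OCsCtr. It had 89.41, 87.04, 66.7 and 75.25 CPM in OCsEo and 75.92, 79.65, 68.83 and 65.43 CPM in OCsEoS. The 4 OCsEoS libraries all lay below the 4 OCsCtr libraries, and the OCsEo libraries overlapped both. OCsEoS and OCsCtr did not overlap for 25.7% of all genes. Against OCsCtr, the log2 fold change of OCsEoS was -0.33 (standard error 0.09, adjusted p = 0.013 in edgeR's quasi-likelihood test), under the cut-off, where 23% of all genes passed on adjusted p alone. In OCsEo it was -0.20 (95% confidence interval -0.39 to 0.00, adjusted p = 0.161), and the difference between the stimuli was -0.14 (-0.33 to 0.06, adjusted p = 0.624). With a trend of each library with gene length taken out, the value in OCsEoS was -0.19 (adjusted p = 0.071). The table gives Syk a length of 9362 bases, the longest of the 8.

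The TEC family kinases were lower in mean in both stimulated groups without being called. Btk (ENSMUSG00000031264, chromosome X, 134542336 to 134583570, minus strand) ranged from 61.95 to 72.18 CPM in OCsCtr, with 58.62 to 64.39 in OCsEo and 58.73 to 62.18 in OCsEoS. Relative to OCsCtr, its log2 fold changes were -0.16 (adjusted p = 0.124) and -0.19 (adjusted p = 0.0466 in edgeR's quasi-likelihood test), and the second no longer had an adjusted p under 0.05 when any library of these groups but OCsCtr replicate 3 was left out (0.072 to 0.141, and 0.0255 without that replicate). OCsCtr replicate 3, at 61.95 CPM, stood apart from the other 3 control libraries, which held 70.62 to 72.18 CPM. Tec (ENSMUSG00000029217, chromosome 5, 72755716 to 72868483, minus strand), with 632 to 1004 counts the member with the fewest reads, ranged from 24.82 to 28.81 CPM in OCsCtr, with 21.1 to 26.69 in OCsEo and 19.03 to 26.37 in OCsEoS. Relative to OCsCtr, its log2 fold changes were -0.22 (adjusted p = 0.181) and -0.30 (adjusted p = 0.0582). Without OCsEoS replicate 2, its highest library in that group, the adjusted p of the latter was 0.0148.

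Plcg2 (ENSMUSG00000034330, chromosome 8, 117498291 to 117635140, plus strand), the phospholipase at the end of the module, ranged from 66.85 to 78.63 CPM in OCsCtr, with 67.06 to 83.79 in OCsEo and 61.97 to 70.56 in OCsEoS. The groups overlapped throughout, with log2 fold changes of 0.03 in OCsEo (95% confidence interval -0.14 to 0.20, adjusted p = 0.86) and -0.14 in OCsEoS (-0.31 to 0.03, adjusted p = 0.244). Its sign in OCsEo turned without OCsCtr replicate 2 (-0.00) or OCsEo replicate 2 (-0.04). Syk, Btk and Plcg2 are also genes of B cells, and the sum of 7 B cell markers was 22.8 to 59.5 CPM in OCsCtr, with 47.4 to 54.8 in OCsEo and 35.2 to 56.7 in OCsEoS. Within the annotation, Plcg2, Btk and Tec overlap the genes Gm27361, Gm15154 and Gm43499, the first pair on the opposite strand and the last on the same strand, which had at most 0, 1 and 1 counts in any library.

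Per base of transcript Tyrobp was the most abundant member in each group, and the order of the next members depended on the gene length used. With the gene lengths of the table, CPM per kb in OCsCtr was 1246 ± 83.4 for Tyrobp, 239.8 ± 21.4 for Fcer1g, 73.89 ± 9.89 for Oscar, 37.73 ± 0.882 for Trem2, 21.89 ± 1.49 for Btk, 16.81 ± 1.35 for Plcg2, 9.737 ± 0.833 for Syk and 7.271 ± 0.466 for Tec (SD, n = 4). The ranges of neighbors in this order did not overlap in OCsCtr. In OCsEo and OCsEoS, Trem2 (76.68 ± 3.83 and 64.8 ± 4.13 CPM per kb) stood above Oscar (44.22 ± 8.77 and 40.07 ± 10.4), with ranges that did not overlap. In OCsEo the ranges of Btk and Plcg2 and of Syk and Tec overlapped, and in OCsEoS those of Syk and Tec. The table gives Trem2 4946 bases, whereas its principal transcript in GENCODE vM21 has 1088, and on that length Trem2, at 171.6 ± 4.01 CPM per kb, already stood above Oscar, at 74.86 ± 10, in OCsCtr. On principal transcripts Fcer1g, at 310.9 ± 27.7 CPM per kb in OCsCtr, 396.8 ± 27.8 in OCsEo and 312.3 ± 18 in OCsEoS, stood next above Trem2, which reached 348.6 ± 17.4 in OCsEo and 294.6 ± 18.8 in OCsEoS. The ranges of this pair did not overlap in OCsCtr and OCsEo but overlapped in OCsEoS.

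The wider pathway was followed in 7 lists of genes that share roles with the members, counted by the same call rule. Of 38 listed receptors that pair with DAP12 or FcRγ, 23 were tested. Among them, 6 were called higher and 1 lower in OCsEo, and 4 higher and 1 lower in OCsEoS, with medians of 0.22 and 0.28. Over all tested genes, 3.27% were called higher and 2.61% lower in OCsEo, and 3.63% higher and 4.11% lower in OCsEoS. The 1 that fell in both was Siglec15, a DAP12-coupled receptor of osteoclasts, from 55.81 ± 5.631 CPM in OCsCtr to 33.97 ± 4.711 in OCsEo and 29.44 ± 6.266 in OCsEoS. The log2 fold changes of Siglec15, -0.72 and -0.92 (adjusted p = 7.37e-04 and 5.38e-05, edgeR's quasi-likelihood test), stand beside -0.74 and -0.88 for Oscar. Those that rose in both included Clec4d, a C-type lectin that signals through FcRγ, from 220.5 ± 14.62 CPM to 361.6 ± 35.87 and 408.1 ± 42.17 (log2 fold changes 0.71 and 0.89, adjusted p = 5.4e-06 and 8.58e-07). Fcgr3, a low-affinity IgG receptor, rose by 0.80 and 0.81 (adjusted p = 2.21e-04 and 1.3e-04). Cd200r4, a DAP12-coupled relative of the CD200 receptor, rose by 1.15 and 0.87 (adjusted p = 0.00276 and 0.0149). Its call in OCsEoS was lost without OCsCtr replicate 2 or OCsEoS replicate 1 (adjusted p = 0.0515 and 0.0674), and without the former only 2 receptors were called higher in OCsEoS. The other called receptors, all higher, were Fcgr4 in both groups, lost in OCsEoS without OCsCtr replicates 1, 2 or 3 or OCsEoS replicate 4, and Sirpb1b and Sirpb1c in OCsEo. Sirpb1b and Sirpb1c are close paralogs whose counts are uncertain, and the call of Sirpb1b was lost without OCsEo replicate 4.

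In the list drawn up for the inhibitory side the called genes were higher. This list held 30 tested genes, set down as receptors with inhibitory motifs (ITIM), phosphatases and other inhibitors of ITAM signaling. Of these, 6 were called higher and 0 lower in OCsEo, and 4 higher and 0 lower in OCsEoS, where DESeq2 gave the same counts. With 2.61% and 4.11% of all genes called lower, a count of 0 lower among 30 is near the background, and 3.27% and 3.63% of all genes were called higher. At an unadjusted p under 0.05 in edgeR there were 7 higher of 12 in OCsEo and 7 higher of 18 in OCsEoS, and the medians were -0.01 and -0.12. Of all 13681 tested genes, 4069 in OCsEo and 4686 in OCsEoS had an unadjusted p under 0.05. Lilr4b was counted in this list as a near-identical paralog of the inhibitory receptor Lilrb4a, and is not itself taken as an inhibitor. Reads may have been shared between the 2 genes. Lilr4b and Lilrb4a gave log2 values of 1.11 and 0.66 in OCsEo against OCsCtr (adjusted p = 6.25e-07 and 2.78e-06 in edgeR's quasi-likelihood test). In OCsEoS the values were 0.96 and 0.64 (adjusted p = 4.27e-06 and 5.61e-06). Cd300a, an ITIM receptor for phospholipids, rose by 0.73 in OCsEo (adjusted p = 9.77e-06), and its value of 0.47 in OCsEoS (adjusted p = 4.62e-04) missed the cut-off, which it passed without OCsCtr replicate 4 (0.58) or OCsEoS replicate 2 (0.52). Lair1, an inhibitory receptor for collagen as OSCAR is an activating one, rose by 0.58 and 0.52 (adjusted p = 8.69e-04 and 0.00142), from 21.74 ± 2.756 CPM to 32.56 ± 3.365 and 31.28 ± 2.632. In OCsEoS it dropped to 0.46, 0.47 and 0.47, under the cut-off, without OCsCtr replicate 1, OCsCtr replicate 4 or OCsEoS replicate 4. The other called inhibitors were Cd300lf and Pirb in OCsEo and Dok2 in OCsEoS. The call of Cd300lf was lost without OCsCtr replicate 1, OCsCtr replicate 2 or OCsEo replicate 1, and that of Pirb without OCsEo replicate 4. Without OCsCtr replicate 1 or OCsEoS replicate 2, 1 inhibitor was called lower in OCsEoS, and without OCsEoS replicate 1 there were 2.

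**Figure D4:**
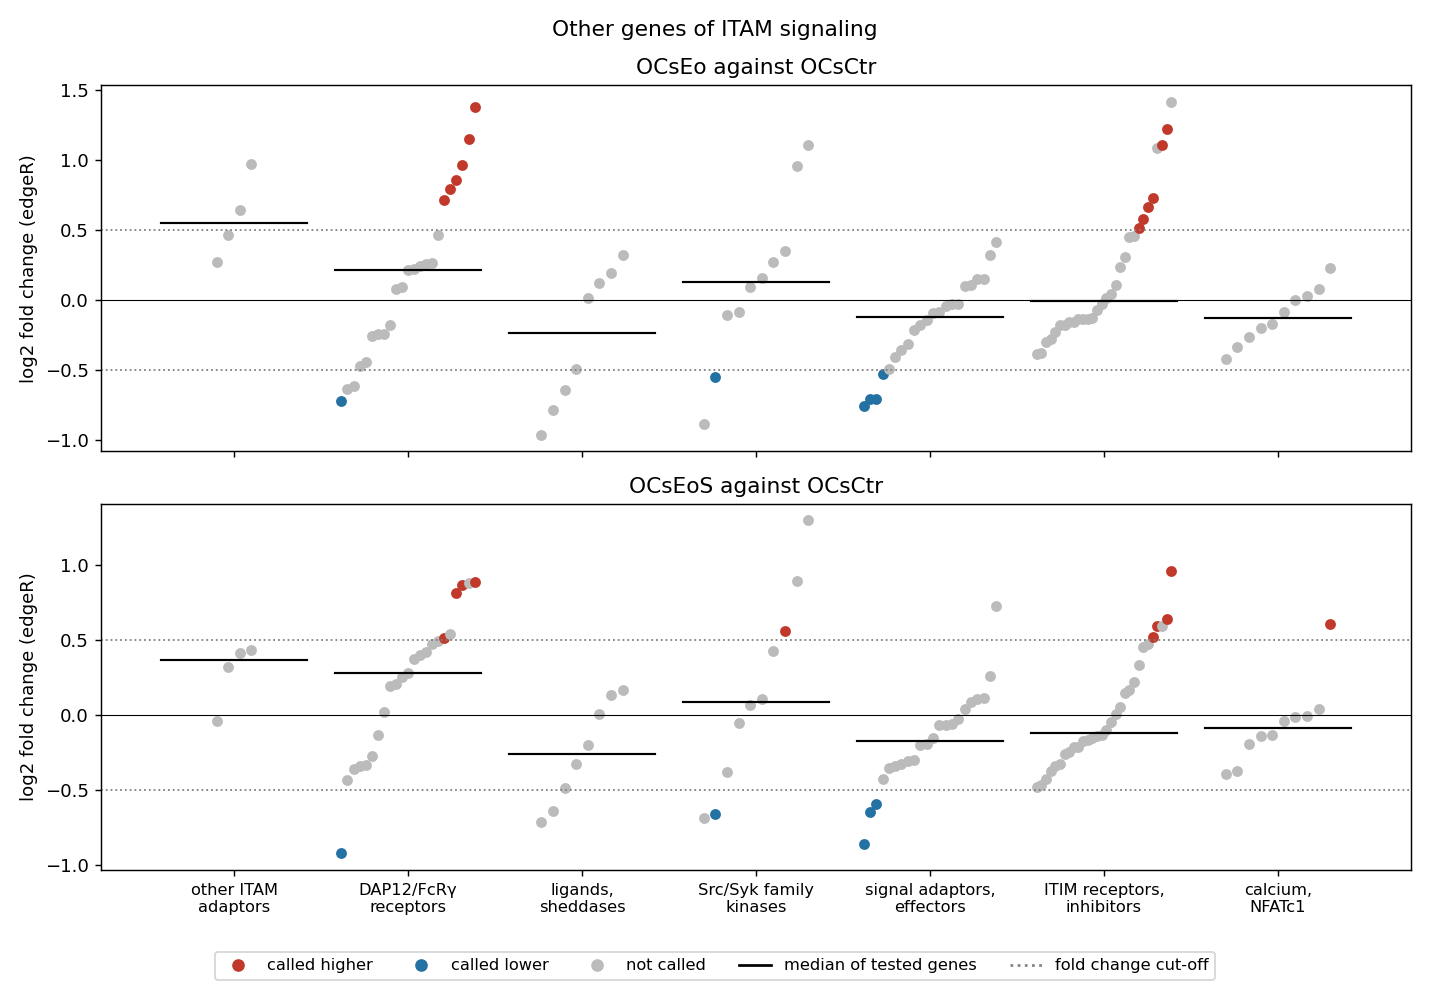
Log2 fold changes from edgeR (y axis) of each tested gene of the 7 lists in OCsEo (top) and OCsEoS (bottom) against OCsCtr, sorted within each list. Red points were called higher, blue points lower and grey points not called, black bars are list medians and dotted lines the cut-off of 0.5. The called receptors are mostly red, the called signal adaptors all blue, and the called genes of the inhibitor list all red.

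Among the signal adaptors and effectors the called genes were lower. Of 22 tested, 0 were called higher and 4 lower in OCsEo, and 0 higher and 3 lower in OCsEoS, the same counts as with DESeq2, with medians of -0.12 and -0.17. Over all genes 2.61% and 4.11% were called lower, and with 3.27% and 3.63% called higher, a count of 0 higher among 22 is near the background. At an unadjusted p under 0.05 in edgeR, 2 of 11 were higher in OCsEo and 1 of 9 in OCsEoS. Of all 13681 tested genes, 4069 and 4686 had such a p in these comparisons. Gab2, a docking protein of RANK and ITAM signaling, had 31.26 ± 1.435 CPM in OCsCtr, with 18.55 ± 4.126 in OCsEo and 17.26 ± 2.413 in OCsEoS (fold changes on the log2 scale of -0.75 and -0.86, adjusted p = 8.16e-04 and 1.78e-04). Prkcb, a protein kinase C activated by the products of phospholipase C, fell by 0.71 and 0.65 on the log2 scale (adjusted p = 4.65e-04 and 6.68e-04), and Pik3cb, a catalytic subunit of PI3 kinase, by 0.52 and 0.59 (adjusted p = 1.12e-05 and 4.27e-06). With the trend with gene length taken out, Pik3cb was at -0.44 and -0.49, under the cut-off. Plcg1, the paralog of Plcg2, fell by 0.71 in OCsEo (adjusted p = 0.0244), a call lost without OCsCtr replicate 1 or 4 (0.0593 and 0.091) or OCsEo replicate 2 or 3 (0.0537 and 0.069). In OCsEoS it was at -0.30 (adjusted p = 0.34).

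Of 10 other Src and Syk family kinases, 1 was called lower in each stimulated group and 1 higher in OCsEoS, where DESeq2 called 2 higher. With 5.88% and 7.73% of all genes called in either direction, these counts are close to the background. The gene that fell was Src itself, the kinase osteoclasts need to form their ruffled border, from 170 ± 6.768 CPM to 116.2 ± 8.006 and 107.6 ± 9.002 (log2 fold changes -0.55 and -0.66, adjusted p = 2.6e-05 and 4.27e-06). Fyn, a further member of the family, had 0.35 in OCsEo (adjusted p = 0.0459, under the cut-off) and rose by 0.56 in OCsEoS (adjusted p = 0.00174), where it dropped to 0.49 without OCsEoS replicate 1. Without OCsCtr replicate 2, 2 of these kinases were called higher in OCsEoS. In the list of calcium release, calcineurin and NFATc1, 5 of 10 had an unadjusted p under 0.05 in OCsEo in edgeR, as did 4069 of all 13681 tested genes. Of the 10, 0 were called in OCsEo by edgeR or DESeq2, and 1 in OCsEoS. The latter was Itpr1, a calcium release channel (0.61, adjusted p = 0.0483), and this call was lost whichever library of the 2 groups was left out (adjusted p = 0.0553 to 0.127). Nfatc1, the target of the module, had 391.4 ± 13.77 CPM in OCsCtr, with 292.3 ± 33.09 in OCsEo and 302.2 ± 33.16 in OCsEoS. On the log2 scale the changes were -0.42 and -0.37, both under the cut-off (adjusted p = 9.35e-04 and 0.00174).

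Among the ligands and sheddases of TREM2 and OSCAR, 0 of 8 tested genes were called in either group by edgeR or DESeq2, with 2 and 3 at an unadjusted p under 0.05. Lgals3 (galectin-3, reported as a ligand of TREM2), the most highly expressed of them at 1957 ± 56.03 CPM in OCsCtr, gave 0.33 on the log2 scale in OCsEo (adjusted p = 2.47e-04, under the cut-off) and 0.13 in OCsEoS (adjusted p = 0.0715). Of 4 tested ITAM or related adaptors other than the members, 0 were called by edgeR in either group. In each group, 1 of them had an unadjusted p under 0.05 in edgeR. DESeq2 fitted to the 2 groups alone called 1 in OCsEo. With 5.88% and 7.73% of all genes called in OCsEo and OCsEoS, counts of 0 among these 8 and 4 genes are near the background. An unadjusted p under 0.05 in edgeR was found for 4069 and 4686 of all 13681 tested genes. Hcst, which encodes the partner adaptor DAP10, had 10.88 ± 1.749 CPM in OCsCtr, with log2 fold changes of 0.27 and 0.32 (adjusted p = 0.173 and 0.087). Single libraries moved these counts to 1, namely 1 ligand called lower without OCsEo replicate 2 in OCsEo, 1 without OCsCtr replicates 2 or 3 or OCsEoS replicates 1 or 2 in OCsEoS, and 1 adaptor called higher in either group without OCsCtr replicate 4. In OCsEoS against OCsEo, edgeR and DESeq2 called 0 genes of the 7 lists, where edgeR called 0.38% of all tested genes. Such counts of 0 are near the background. At an unadjusted p under 0.05 in edgeR there were 0 to 4 genes in each list, and 1524 of all 13681 tested genes.

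The genes whose levels across the 12 libraries followed the receptors most closely were found by Pearson's r of log2 CPM, given as a description, since the libraries fall into 3 groups that set most of the pattern. Closest to Oscar were Calcr (the calcitonin receptor, r = 0.969), Etfdh (0.967), Kazn (0.961), Gna13 (0.959) and Rufy4 (0.959). Calcr, a marker of osteoclasts, had log2 fold changes of -0.81 in OCsEo and -1.08 in OCsEoS (adjusted p = 2.05e-04 and 1.13e-05 in edgeR's quasi-likelihood test). Closest to Trem2 were Stmn1 (stathmin, r = 0.981), Pir (0.979), Tmsb10 (thymosin β10, 0.979), Lilr4b (0.974) and Sf3a2 (0.969). Of these, Pir rose by 1.18 and 0.79 and Tmsb10 by 0.85 and 0.70 in OCsEo and OCsEoS, whereas Sf3a2 had only 0.31 and 0.25, under the cut-off, so that a high r did not go with a like size of change. By Spearman's rank correlation, 1 of the 10 genes was again among the closest 5 of its receptor, which was Kazn for Oscar.

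Total counts were 27837530 to 40327869 per library, the members had 632 to 37043 counts in each, and each of the 18 replicate pairs within a group differed by more than sampling noise (chi-square per degree of freedom 9.79 to 34.4). The sums of T or NK cell markers (1.43 to 4.72 CPM, with Ncr1 at 0 counts) and of stromal or osteoblast markers (9.35 to 60.4 CPM) were low in all libraries. Neither the labels nor the study's methods give a sequencing batch. Of the gene symbols in the lists, 9 were not found in the table, all of them from the list of receptors that pair with DAP12 or FcRγ.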

How the data were processed

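The 12 bulk RNA-seq. libraries were 4 biological replicates of OCsCtr, of OCsEo and of OCsEoS. Paired-end reads, cleaned beforehand, were aligned by the authors to GRCm38/mm10 using HISAT2 (2.0.5). The deposited values are raw counts from featureCounts. fastp is also named in the submitters' processing notes. The annotation release and the strand setting are not given in the sources used here, so reads of overlapping genes may not be separated. Columns of gene length and position, as deposited by the authors, were used for per-length levels.

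Genes were filtered with filterByExpr (minimum count 10), scaled by TMM (factors 0.968 to 1.03) and tested over all 13681 genes in 1 fit of 12 libraries with the quasi-likelihood F-test of edgeR 4.0.16 (limma 3.58.1, R 4.3.3), with Benjamini-Hochberg adjustment. DESeq2 1.42.0, the tool of the study, was an alternative. CPM are TMM scaled, and log2 CPM used a prior count of 2. The scripts were tested on simulated data. The members and gene lists, and the rule for the genes named (all members, up to 4 called genes of each list whose mean log2 CPM was 1 or more, or else the most highly expressed one, and the 5 most similar genes of Oscar and Trem2), were chosen with earlier results of these data known. Nfatc1 was named by the part of the rule on lists with under 2 called genes. Other called list genes and single control markers were named after their values were seen. Alternatives were other scalings, filters, tests and call rules, thinned counts, mitochondrial genes left out, gene length trends taken out, a replicate block and each library left out. P-values weigh a difference between groups against the spread between these replicates. Intervals cover sampling and replicate error only.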

Additional observations from a re-analysis of the deposited data

Results flagged for a closer look

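Fcer1g had an adjusted p under 0.05 for the difference between the stimuli, without being called, since the change was under the cut-off of 0.5. Its effect in OCsEoS less that in OCsEo was -0.35 on the log2 scale (adjusted p = 0.0261 in edgeR's quasi-likelihood test), and all 4 OCsEoS libraries lay below all 4 OCsEo libraries. Those groups did not overlap for 5.47% of all genes. The adjusted p was above 0.05 (0.0529 to 0.105) when any library of these groups but OCsEo replicate 1 or OCsEoS replicate 2 was left out. Sirpa, an inhibitory receptor of macrophages from the list of inhibitors and singled out by this test alone, gave -0.39, also under the cut-off (adjusted p = 0.0321), with 549.1 ± 47.89 CPM in OCsCtr, with 555.4 ± 36.39 in OCsEo and 424.7 ± 55.87 in OCsEoS (SD, n = 4). Leaving out single libraries, its adjusted p was 0.0142 to 0.13, and it passed 0.05 without OCsEo replicates 1, 2 and 4 (0.0573, 0.105 and 0.103) and without OCsEoS replicates 3 and 4 (0.13 and 0.0962).

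The lowest OCsCtr library of Btk, replicate 3 at 61.95 CPM, lay far from the other 3, with a gap of 0.848 of the range of the group, above the critical value of Dixon's test. This was 1 of 24 groups tested, where chance flags about 1 in 20.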

How the results depend on the processing

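Oscar and Trem2 kept their calls and directions against OCsCtr under every alternative run other than glmTreat, and the latter left 1 member in each of these comparisons. Adjusted p alone gave 3 members in OCsEo, 4 in OCsEoS and 1 (Fcer1g) in OCsEoS against OCsEo, where 17.4%, 23% and 0.592% of all genes passed. Without any single replicate, 2, 2 and 0 members were called in OCsEo, OCsEoS and between the stimuli. Genes called over the whole table numbered 2382 and 3151 against OCsCtr by adjusted p alone, and 50 and 55 with glmTreat, both of which change the threshold itself. Between the stimuli, 52 genes became 81 with DESeq2 on all libraries, 100 without a filter, 81 by adjusted p alone and 3 with glmTreat. Leaving out single replicates gave 664 to 980 genes in OCsEo, 849 to 1345 in OCsEoS and 17 to 62 between the stimuli, of which 27 and 34 were without OCsEo replicates 2 and 3 and 17 and 34 without OCsEoS replicates 3 and 4. The cause was not tested. Leaving out single replicates turned the signs of values near 0, which then ranged from -0.0389 to 0.0709 for Plcg2 and -0.0198 to 0.0782 for Sirpa in OCsEo, and from -0.0766 to 0.0171 for Tyrobp and -0.0634 to 0.0385 for Fcer1g in OCsEoS, the last also negative with the length trend taken out (-0.108), where Tyrobp had -0.14 (adjusted p = 0.0415). The adjusted p of Trem2 between the stimuli was under 0.05 in 4 of 20 alternatives, down to 0.00382 with DESeq2. The principal transcript length, chosen after seeing the data, changed the rank of 4 members in OCsCtr, and the rank correlation kept 1 of 10 similar genes. Correlations of same-numbered libraries between groups were low, at -0.04 to 0.09. Among the libraries of the other groups, however, 9 of 12 libraries were closest to one with their own number. Whether the replicate numbers pair the samples was therefore not settled, and the main fit took no pairing. A replicate block gave 2, 2 and 0 members called, with 854, 1108 and 67 genes, and an adjusted p of 0.0201 for Trem2 between the stimuli. Depth limits Tec most, with 632 counts in its lowest library.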
